A study of Homo sapiens with 12 samples.

Results

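The solute carrier (SLC) genes encode membrane proteins that move sugars, amino acids, ions, nucleotide sugars, vitamins and other solutes across the cell surface and the membranes of organelles. They are grouped into families by sequence, so that members of 1 family share a fold but not always a substrate. Many belong to the major facilitator superfamily (MFS), whose members change shape to expose their binding site to one side of the membrane and then to the other. PQ-loop carriers of the SLC66 family include exporters of the lysosome, and nucleotide sugar carriers of the SLC35 family supply the Golgi apparatus. In epithelial and tumour cells such carriers set which nutrients enter and leave the cell and its lysosomes.

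Expressed SLC genes were selected on measured level: every annotated symbol made of SLC and a digit whose log2 signal averaged 5 or more over all 12 arrays, with the brightest transcript cluster kept for a symbol. Of 37 such symbols, 20 met the minimum and 17 did not, out of 14884 gene symbols in all. The levels themselves therefore describe the selection and are given without a test.

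The arrays were Affymetrix GeneChip Human Gene 2.0 ST arrays, hybridised with total RNA from AGS, MKN1 and SNU601, established lines of human gastric cancer, grown in RPMI-1640 with fetal calf serum. Each line was treated with DMSO (the solvent), Rhosin (an inhibitor of the small GTPase RhoA), JK136 or JK139 (known here only by code name), with 1 array for each of the 12 combinations. Doses and times of exposure were not stated in the labels. A comparison of 2 treatments therefore had 3 arrays a side, 1 per line, and a comparison of 2 lines had 4 arrays a side, 1 per treatment, which are not stated to be independent cultures and share their line. P-values measure the spread between these arrays, and their number limits the precision.

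The label of solute carrier genes fitted most of the 20 symbols but not all. Of them, 18 were protein-coding and 2 were long non-coding RNAs, SLC9A3-OT1 and SLC25A25-AS1, named for the carrier genes they overlap. SLC2A4RG is a transcription factor that binds the enhancer of a glucose carrier gene and is no carrier. Symbols were available for few of the classical carriers: of 232 listed carrier genes for sugars, amino acids, monocarboxylates, ions, metals, vitamins, lipids and mitochondrial substrates, 1 (SLC25A15) was named on these arrays, and the others were not analysed here. The expressed carriers that had a symbol were thus mainly genes that received an SLC name late. These included SLC71A2 (earlier MFSD14B), SLC9D1 (TMCO3), SLC49A4 (DIRC2), SLC60A2 (MFSD4B), SLC38A12 (TMEM104), SLC66A1 (PQLC2) and SLC61A1 (MFSD5). This reflects which symbols were available, and whether the carriers without one were expressed was not examined.

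All 20 passed the filter on mean signal used for testing (4.61 on the log2 scale), as the minimum of 5 required. On every array, 19 of the 20 stood at 5 or more. SLC61A1, a molybdate-anion carrier, was the exception, with a mean of 4.68 in AGS. The 5 members nearest above the minimum averaged 5.04 (SLC61A1), 5.24 (SLC49A3), 5.50 (SLC66A3), 5.57 (SLC35D4) and 5.68 (SLC25A25-AS1). Nearest below it were SLC25A15 at 4.85, SLC25A2 at 4.80, SLC60A1 at 4.62, SLC51B at 4.57 and the long non-coding SLC2A1-DT at 4.36. SLC25A15, the mitochondrial ornithine carrier, averaged 5.10 in MKN1 and was the 1 symbol below the minimum with a line mean of 5 or more. The 17 below the minimum held 5 protein-coding symbols, 11 long non-coding RNAs and 1 pseudogene.

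Promoter windows were taken from RefSeq (build GRCh38.p14), running from 250 bases before to 50 bases after the annotated start, and 16 of the 20 members had one. SLC35F6, SLC66A2, SLC33A2 and SLC35D4 had none in the table. The GC box, searched as GGGCGG on both strands, occurred in 14 of the 16 windows, against 45.0% of 35116 windows of the same length. The CCAAT box, searched as CCAAT on both strands, occurred in 4 (34.6% of all windows), the E-box CACGTG in 2 (7.26%) and TATAAA in 0 (11.5%). GC content had a median of 71.8% over the members, from 58.7% to 87.0%, and 58.7% over all windows. The members were selected on signal and the 35116 windows were not. Windows of other expressed genes were not compared, so these contrasts cannot be read as particular to SLC genes. The 4 windows that follow belong to the SLC71 pair, whose genes differed in their pattern over the lines, to SLC2A4RG, a transcript much higher in MKN1, and to SLC67A2, the gene farthest from DMSO. Capitals mark GC boxes, on either strand.
SLC71A1, chr1:100037845-100038144, plus strand: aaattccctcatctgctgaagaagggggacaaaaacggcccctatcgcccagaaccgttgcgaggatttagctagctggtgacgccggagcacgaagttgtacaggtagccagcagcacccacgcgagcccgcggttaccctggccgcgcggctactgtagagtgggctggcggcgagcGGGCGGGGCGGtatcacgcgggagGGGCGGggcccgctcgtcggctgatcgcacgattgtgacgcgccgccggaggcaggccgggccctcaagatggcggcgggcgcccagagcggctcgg
SLC71A2, chr9:94374319-94374618, plus strand: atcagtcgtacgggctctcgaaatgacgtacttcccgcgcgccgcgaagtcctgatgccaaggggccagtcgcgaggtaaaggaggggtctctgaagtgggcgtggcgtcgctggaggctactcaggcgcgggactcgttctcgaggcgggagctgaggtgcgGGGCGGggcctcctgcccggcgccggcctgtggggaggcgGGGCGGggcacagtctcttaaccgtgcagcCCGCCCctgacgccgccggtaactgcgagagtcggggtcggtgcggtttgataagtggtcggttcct
SLC2A4RG, chr20:63739526-63739825, plus strand: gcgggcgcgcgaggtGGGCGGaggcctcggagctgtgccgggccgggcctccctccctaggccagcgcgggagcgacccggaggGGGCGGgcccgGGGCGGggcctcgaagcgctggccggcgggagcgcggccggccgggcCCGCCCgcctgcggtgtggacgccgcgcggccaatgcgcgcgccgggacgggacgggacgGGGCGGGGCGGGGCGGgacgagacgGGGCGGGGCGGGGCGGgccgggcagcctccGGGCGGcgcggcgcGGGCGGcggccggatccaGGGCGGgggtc
SLC67A2, chr2:102736839-102737138, minus strand: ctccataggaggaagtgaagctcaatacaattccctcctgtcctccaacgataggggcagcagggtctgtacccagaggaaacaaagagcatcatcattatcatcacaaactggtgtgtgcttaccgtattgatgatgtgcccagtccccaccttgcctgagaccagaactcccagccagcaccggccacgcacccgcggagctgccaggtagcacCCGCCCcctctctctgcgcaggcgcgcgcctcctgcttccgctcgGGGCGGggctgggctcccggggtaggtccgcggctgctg
Both SLC71 windows held 3 GC boxes, at a GC content of 68.7% and 68.3%. The SLC2A4RG window held 13 and was the richest in GC of the 16, at 87.0%. SLC67A2 had 2 GC boxes in a window of 62.0% GC. These matches are descriptions of the sequence, and binding was not measured.

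Cell line, not treatment, separated the arrays for most of the 20 genes. Line accounted for a median of 84.7% of a member's variation over the 12 arrays (82.0% over all 8930 genes tested), treatment for 3.60% (5.30%) and the remainder for 12.1% (10.9%). The gap between the highest and the lowest line mean had a median of 0.56 on the log2 scale, against 0.59 over all genes tested.

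**Figure D1:**
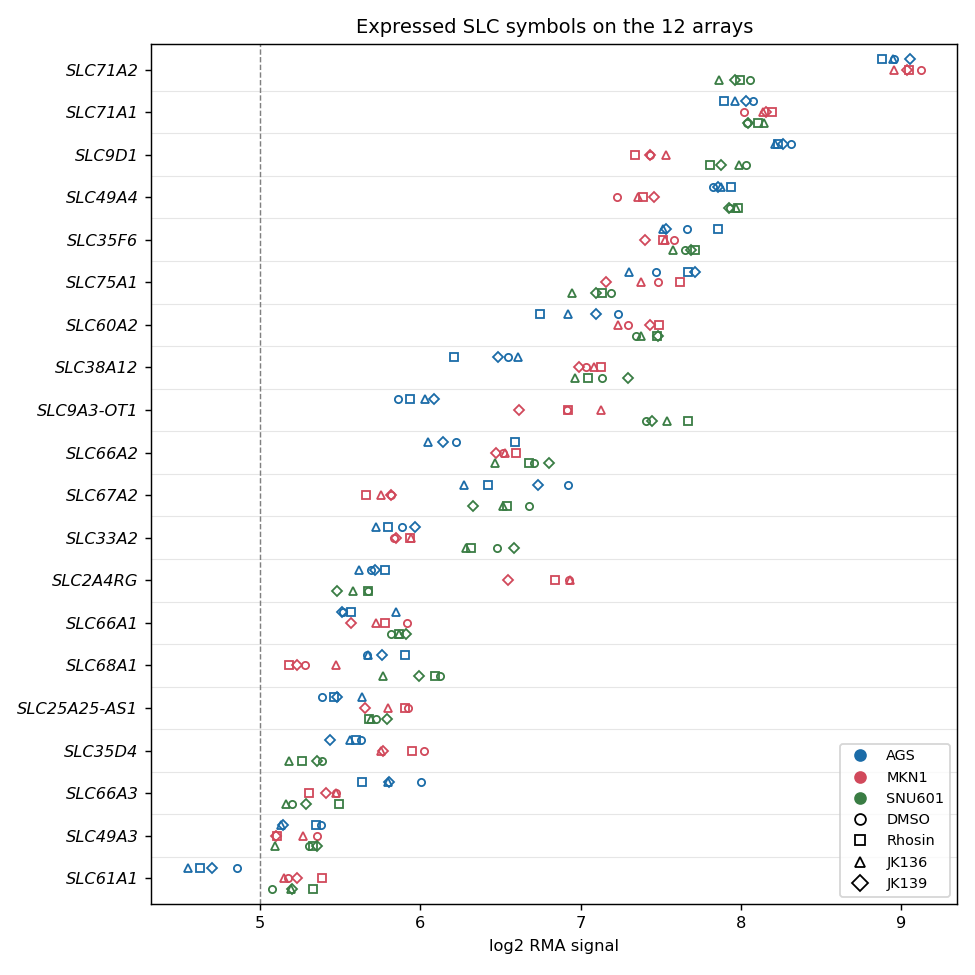
Log2 RMA signal (horizontal axis) of the 20 expressed SLC symbols on each of the 12 arrays, coloured by line and shaped by treatment, in order of mean; the dashed line is the minimum of 5. The SNU601 arrays of SLC71A2 and the MKN1 arrays of SLC2A4RG stand apart from the arrays of the other lines, whereas those of SLC71A1, SLC35F6 and SLC49A3 overlap; levels of different genes come from different probes and are not compared.

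Differences between lines were tested with limma, with treatment as a further term, and called at a Benjamini-Hochberg adjusted p under 0.05. Between MKN1 and AGS 13 of the 20 members were called (66.3% of all genes tested), 8 higher in MKN1 (35.3%) and 5 lower (31.0%). Between SNU601 and AGS 13 were called (52.7%), 8 higher in SNU601 (29.9%) and 5 lower (22.8%). Between SNU601 and MKN1 10 were called (63.4%), 6 higher in SNU601 (32.3%) and 4 lower (31.1%). The median size of the members' differences was 0.35, 0.29 and 0.24 in the same order, and that of all genes was 0.40, 0.27 and 0.37. These 3 comparisons share arrays, since each line enters 2 of them. At least 1 comparison of lines called 17 members, and SLC71A1, SLC35F6 and SLC49A3 were called in none.

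**Figure D2:**
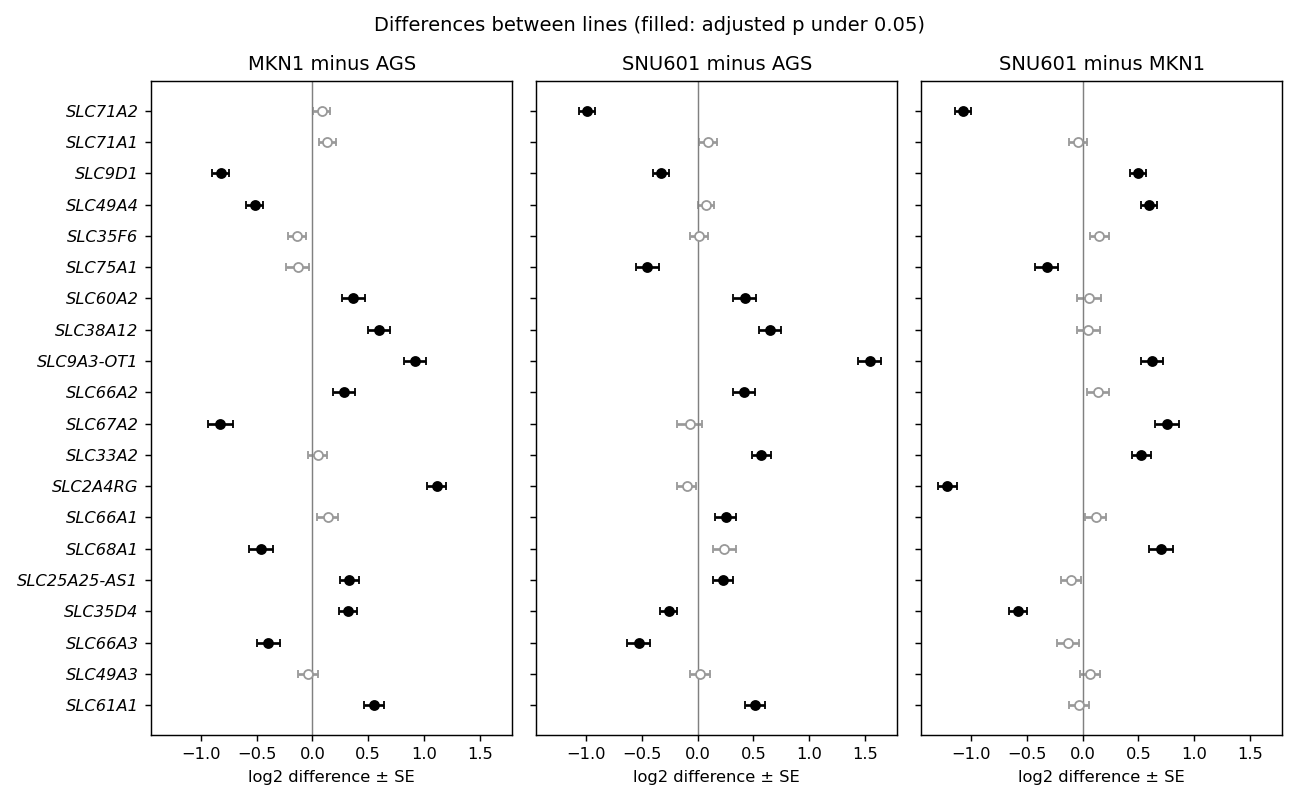
Log2 differences between lines with their standard errors (horizontal axis) for each of the 20 members, 1 panel per pair of lines; filled points passed an adjusted p under 0.05 in limma, and grey points did not. The widest difference is that of SLC9A3-OT1 between SNU601 and AGS, 1.54 ± 0.10, and the most negative is that of SLC2A4RG between SNU601 and MKN1, -1.21 ± 0.09.

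The 2 genes of the SLC71 family, MFS proteins without an assigned substrate, did not share a pattern. Of the pair, SLC71A1 was first described as abundant in hippocampus. In each line the 4 values are given in the order DMSO, Rhosin, JK136 and JK139, here and for every other gene. SLC71A2 read 8.96, 8.88, 8.95 and 9.05 in AGS, 9.12, 9.05, 8.96 and 9.04 in MKN1 and 8.06, 7.998, 7.86 and 7.96 in SNU601. Every SNU601 array lay below every AGS and MKN1 array. SLC71A2 was lower in SNU601 than in AGS by 0.99 ± 0.07 (SE; adjusted p = 4.73e-07) and than in MKN1 by 1.07 ± 0.07 (adjusted p = 1.06e-07), each on the log2 scale and each on 4 of 4 treatments. AGS and MKN1 overlapped, with an interval of the difference from -0.08 to 0.24 (95%). SLC71A1 read 8.07, 7.90, 7.97 and 8.04 in AGS, 8.02, 8.19, 8.14 and 8.16 in MKN1 and 8.04, 8.11, 8.15 and 8.05 in SNU601. Its lines overlapped in every pair, and no line difference was called, the widest being 0.13 ± 0.08 between MKN1 and AGS (95% interval -0.04 to 0.30).

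**Figure D3:**
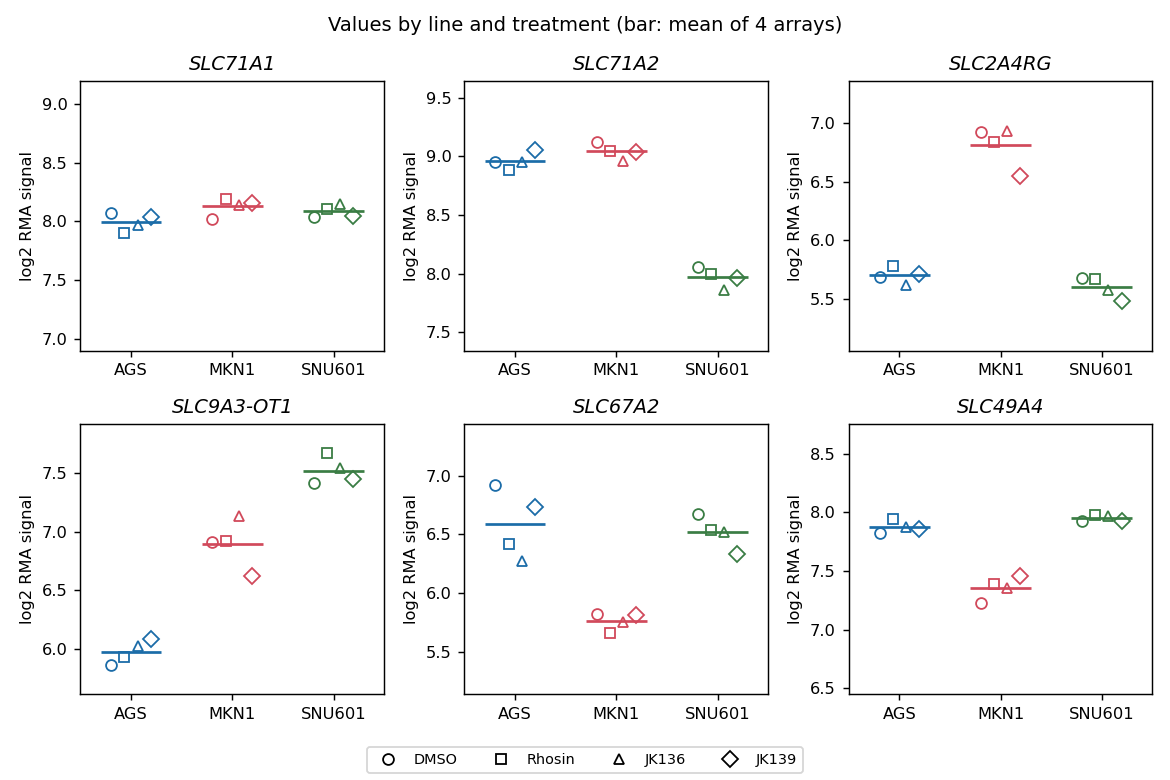
Log2 RMA signal (vertical axis, each panel spanning a similar range around its own values) of 6 members by line, with a symbol per treatment and a bar at the mean of 4 arrays. SLC71A1 is level over the lines, SLC71A2 is low in SNU601, SLC2A4RG is high in MKN1, SLC9A3-OT1 differs in all 3 lines, and SLC67A2 and SLC49A4 are low in MKN1.

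Of the 3 genes of the SLC66 family, the PQ-loop carriers, SLC66A1 and SLC66A2 had their means in the order AGS, MKN1, SNU601 from low to high, and SLC66A3 had the opposite order. SLC66A1, which exports cationic amino acids from lysosomes, read 5.52, 5.57, 5.84 and 5.51 in AGS, 5.91, 5.78, 5.72 and 5.57 in MKN1 and 5.81, 5.87, 5.86 and 5.91 in SNU601. Its SNU601 values exceeded those of AGS by 0.25 ± 0.10 (adjusted p = 0.0419), although the JK136 array of AGS lay inside the SNU601 range, and neither line differed from MKN1 at the threshold. This call passed narrowly: it was lost without any 1 of 7 arrays (AGS with DMSO, Rhosin or JK139, MKN1 with Rhosin, SNU601 with DMSO, Rhosin or JK139), with adjusted p up to 0.161 over the alternatives and differences between 0.19 and 0.33.

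SLC66A2, a PQ-loop protein whose substrate is less settled, read 6.22, 6.59, 6.05 and 6.14 in AGS, 6.52, 6.60, 6.53 and 6.47 in MKN1 and 6.71, 6.68, 6.47 and 6.80 in SNU601. Of the AGS arrays, the one with Rhosin lay inside the range of the other lines and the other 3 lay below it. AGS was lower than MKN1 by 0.28 ± 0.10 (adjusted p = 0.0249) and than SNU601 by 0.42 ± 0.10 (adjusted p = 0.00361). The first of these calls was lost without the AGS array with DMSO, JK136 or JK139 or the MKN1 array with DMSO or JK136, where the difference lay between 0.21 and 0.29. SLC66A3 ran the other way: it read 6.0, 5.64, 5.80 and 5.81 in AGS, 5.47, 5.31, 5.47 and 5.41 in MKN1 and 5.20, 5.49, 5.16 and 5.29 in SNU601, so that every AGS array lay above every array of the other lines. MKN1 minus AGS was -0.39 ± 0.10 (adjusted p = 0.00442) and SNU601 minus AGS -0.53 ± 0.10 (adjusted p = 0.000914). SNU601 and MKN1 differed by -0.13 ± 0.10, which was not called with all arrays (adjusted p = 0.279) and was called without the SNU601 array with Rhosin.

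Of the 2 SLC49 genes, relatives of the heme exporter FLVCR1, 1 was low in MKN1. SLC49A4, a carrier of the lysosomal membrane first found at a chromosome break in renal cancer, read 7.83, 7.94, 7.88 and 7.86 in AGS, 7.22, 7.39, 7.36 and 7.46 in MKN1 and 7.93, 7.98, 7.97 and 7.92 in SNU601. All 4 MKN1 arrays lay below the other 8, with differences of -0.52 ± 0.07 from AGS (adjusted p = 4.47e-05) and 0.60 ± 0.07 between SNU601 and MKN1 (adjusted p = 1.51e-05). SLC49A3 read 5.38, 5.35, 5.13 and 5.14 in AGS, 5.35, 5.11, 5.26 and 5.10 in MKN1 and 5.30, 5.33, 5.09 and 5.35 in SNU601. Its lines overlapped, no line difference was called, and its line means spanned 0.06, the narrowest range of the 20. With treatment at 38.8% and line at 5.54% of its variation, it was the member with the highest share for treatment.

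The other MFS carriers differed between lines in most cases. SLC67A2, without an assigned substrate, read 6.92, 6.42, 6.27 and 6.73 in AGS, 5.82, 5.66, 5.75 and 5.81 in MKN1 and 6.67, 6.54, 6.52 and 6.33 in SNU601. MKN1 lay below both other lines on all arrays, by 0.83 ± 0.11 against AGS (adjusted p = 3.33e-05) and by 0.76 ± 0.11 against SNU601 (adjusted p = 7.39e-05), on the log2 scale. SLC68A1, likewise an orphan, was also lowest in MKN1. It read 5.67, 5.91, 5.67 and 5.76 in AGS, 5.28, 5.18, 5.47 and 5.23 in MKN1 and 6.12, 6.09, 5.76 and 5.99 in SNU601. MKN1 was lower than AGS by 0.46 ± 0.10 (adjusted p = 0.00194) and than SNU601 by 0.70 ± 0.10 (adjusted p = 8.62e-05). SNU601 exceeded AGS with each of the 4 treatments, but that difference of 0.24 ± 0.10 missed the threshold (adjusted p = 0.0729).

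SLC60A2, a sodium-dependent glucose carrier, and SLC61A1, the molybdate-anion carrier, were both lowest in AGS. SLC60A2 read 7.24, 6.75, 6.92 and 7.09 in AGS, 7.30, 7.49, 7.23 and 7.43 in MKN1 and 7.35, 7.48, 7.38 and 7.48 in SNU601. AGS with DMSO lay close to the other lines and the AGS arrays with a compound lay lower. MKN1 minus AGS was 0.36 ± 0.10 (adjusted p = 0.00821) over all treatments and 0.06 with DMSO alone. SNU601 minus AGS was 0.42 ± 0.10 (adjusted p = 0.0046) and 0.11 with DMSO alone. SLC61A1 read 4.86, 4.62, 4.55 and 4.70 in AGS, 5.17, 5.38, 5.15 and 5.23 in MKN1 and 5.07, 5.33, 5.19 and 5.20 in SNU601. All AGS arrays lay below the other 8, with a difference of 0.55 ± 0.09 for MKN1 (adjusted p = 0.000165) and 0.52 ± 0.09 for SNU601 (adjusted p = 0.000434). The AGS array with JK136 lay under the filter level of 4.61.

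SLC75A1, an organic anion carrier related to bacterial tetracycline exporters, was lowest in SNU601. It read 7.47, 7.67, 7.31 and 7.72 in AGS, 7.48, 7.62, 7.38 and 7.16 in MKN1 and 7.19, 7.13, 6.94 and 7.10 in SNU601. SNU601 lay below every AGS array and, except for the MKN1 array with JK139, below MKN1. SNU601 minus AGS was -0.45 ± 0.10 (adjusted p = 0.00276) and SNU601 minus MKN1 -0.32 ± 0.10 (adjusted p = 0.0161). The second call was lost without the MKN1 array with Rhosin (-0.28) or JK136 (-0.27) or the SNU601 array with Rhosin (-0.28). SLC33A2, a relative of the acetyl-CoA carrier of the endoplasmic reticulum, was highest in SNU601. Its arrays read 5.88, 5.80, 5.72 and 5.97 in AGS, 5.83, 5.93, 5.94 and 5.84 in MKN1 and 6.48, 6.31, 6.28 and 6.58 in SNU601, which put all SNU601 arrays above the other 8. The differences were 0.57 ± 0.09 from AGS (adjusted p = 0.000132) and 0.53 ± 0.09 from MKN1 (adjusted p = 0.000169).

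The SLC35 family, which includes the nucleotide sugar carriers, had 2 members. SLC35D4 read 5.63, 5.60, 5.56 and 5.43 in AGS, 6.02, 5.95, 5.75 and 5.77 in MKN1 and 5.39, 5.26, 5.18 and 5.35 in SNU601. The lines did not overlap and stood in the order MKN1, AGS, SNU601. All 3 differences were called, at 0.32 ± 0.08 for MKN1 minus AGS (adjusted p = 0.00321), -0.26 ± 0.08 for SNU601 minus AGS (adjusted p = 0.0146) and -0.58 ± 0.08 for SNU601 minus MKN1 (adjusted p = 3.86e-05). Without the AGS array with JK136 or the SNU601 array with Rhosin the SNU601 and AGS call was lost, at -0.22 and -0.23. SLC35F6, which binds a mitochondrial ADP/ATP carrier, read 7.67, 7.86, 7.52 and 7.53 in AGS, 7.58, 7.51, 7.53 and 7.40 in MKN1 and 7.65, 7.71, 7.58 and 7.69 in SNU601. Its lines overlapped, and none of its differences was called, the widest being 0.15 ± 0.08 between SNU601 and MKN1 (95% interval -0.03 to 0.33).

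SLC9D1, a predicted antiporter of cations against protons, had a different level in each line. It read 8.32, 8.23, 8.21 and 8.27 in AGS, 7.43, 7.34, 7.53 and 7.43 in MKN1 and 8.04, 7.81, 7.99 and 7.88 in SNU601, with no overlap and the order AGS, SNU601, MKN1. MKN1 minus AGS was -0.82 ± 0.07 (adjusted p = 1.08e-06), SNU601 minus AGS -0.33 ± 0.07 (adjusted p = 0.00258) and SNU601 minus MKN1 0.49 ± 0.07 (adjusted p = 8.67e-05). SLC38A12, a relative of the sodium-coupled neutral amino acid carriers, was lowest in AGS. It read 6.55, 6.21, 6.61 and 6.49 in AGS, 7.04, 7.13, 7.08 and 6.99 in MKN1 and 7.14, 7.05, 6.96 and 7.29 in SNU601, every AGS array below the other 8. MKN1 and SNU601 exceeded AGS by 0.60 ± 0.10 (adjusted p = 0.000225) and 0.65 ± 0.10 (adjusted p = 0.000192), and the pair differed by 0.05 ± 0.10 (95% interval -0.17 to 0.27).

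Among the widest line differences were those of symbols that encode no carrier. SLC2A4RG read 5.69, 5.78, 5.62 and 5.72 in AGS, 6.93, 6.84, 6.93 and 6.55 in MKN1 and 5.67, 5.67, 5.58 and 5.48 in SNU601. Each MKN1 array lay above all arrays of the other lines. MKN1 exceeded AGS by 1.11 ± 0.09 (2.16-fold; adjusted p = 3.04e-07), SNU601 minus MKN1 was -1.21 ± 0.09 (adjusted p = 1.47e-07), and SNU601 and AGS differed by -0.10 ± 0.09 (95% interval -0.29 to 0.09). The non-coding SLC9A3-OT1, which overlaps a sodium-proton exchanger gene, read 5.86, 5.93, 6.03 and 6.09 in AGS, 6.91, 6.92, 7.13 and 6.62 in MKN1 and 7.41, 7.67, 7.54 and 7.45 in SNU601. The lines did not overlap and rose in that order, by 0.92 ± 0.10 from AGS to MKN1 (adjusted p = 6.02e-06) and 0.62 ± 0.10 from MKN1 to SNU601 (adjusted p = 0.000169). Between AGS and SNU601 it differed 2.91-fold (1.54 ± 0.10 on the log2 scale, adjusted p = 1.67e-07). The antisense RNA SLC25A25-AS1 read 5.38, 5.46, 5.63 and 5.48 in AGS, 5.92, 5.91, 5.80 and 5.65 in MKN1 and 5.72, 5.68, 5.69 and 5.79 in SNU601, with every AGS array lowest. It was higher than AGS in MKN1 by 0.33 ± 0.09 (adjusted p = 0.00563) and in SNU601 by 0.23 ± 0.09 (adjusted p = 0.0457). The second of these calls was lost without any 1 of 8 arrays (AGS with DMSO, Rhosin or JK139, MKN1 with JK136, any SNU601 array), with differences from 0.18 to 0.29 and adjusted p up to 0.170 over the alternatives. SLC9A3 and SLC25A25 themselves were not analysed here.

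Grouped by the order of lines, 5 members were lowest in AGS (SLC60A2, SLC38A12, SLC66A2, SLC25A25-AS1 and SLC61A1), 3 in MKN1 (SLC49A4, SLC67A2 and SLC68A1) and 2 in SNU601 (SLC71A2 and SLC75A1). One each was highest in AGS (SLC66A3), MKN1 (SLC2A4RG) and SNU601 (SLC33A2). In 3 members all lines differed (SLC9D1, SLC9A3-OT1 and SLC35D4), and in 1 the called difference was between SNU601 and AGS alone (SLC66A1). The 3 SLC66 genes, the only family with more than 1 called carrier, fell into 3 of these groups by which gaps passed the threshold. The 31 line calls of members not named as lost, of 36 in all, held in each of the 21 alternatives run for line comparisons.

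The treatments gave no call for any of the 20 genes. Rhosin against DMSO, JK136 against DMSO and JK139 against DMSO each called 0 members and 0% of all genes in limma, and so did JK136 against Rhosin, JK139 against Rhosin and JK139 against JK136 (0% each). At an unadjusted p under 0.05, limma gave 1 member for JK136 against DMSO (SLC67A2), 2 for JK136 against Rhosin (SLC66A2 and SLC75A1) and 0 in the other 4, against 560, 469 and 218 of all genes for Rhosin, JK136 and JK139 against DMSO and 812, 663 and 494 for the 3 pairs of compounds in the order above. The members' differences from DMSO had a median size of 0.08, 0.08 and 0.06 for Rhosin, JK136 and JK139, beside 0.09, 0.08 and 0.07 over all genes. Between compounds the median size was 0.07, 0.08 and 0.07, beside 0.10, 0.09 and 0.09. The half-width of the members' 95% intervals, which are not adjusted for the number of genes, ranged from 0.182 to 0.279, with 0.226 as the median. The threshold on adjusted p was stricter than these intervals. For SLC67A2, JK136 minus DMSO had an interval from -0.57 to -0.01, which excluded 0, and a limma adjusted p of 0.902. Differences wider than the half-width could thus be missed with 3 arrays a side, and the smallest that could be called was not computed. The 3 comparisons with DMSO share the DMSO arrays.

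SLC67A2 had the widest mean differences from DMSO with JK136 and with Rhosin. With JK136 its differences were -0.65 (AGS), -0.07 (MKN1) and -0.16 (SNU601), which averaged -0.29 ± 0.13 (SE, n = 3 lines; limma adjusted p = 0.902). With Rhosin the 3 differences were -0.50, -0.16 and -0.13, and with JK139 -0.18, -0.004 and -0.34, averaging -0.26 ± 0.13 and -0.18 ± 0.13. It was thus lower with each compound in each line, on shared DMSO arrays, and the AGS array with DMSO, at 6.92, was the highest of its 12. SLC35D4 was the other gene below DMSO in all 9 pairs, with means of -0.08 ± 0.09 for Rhosin, -0.18 ± 0.09 for JK136 and -0.16 ± 0.09 for JK139. None of these passed the test.

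Other members kept 1 sign over the 3 lines with 1 or 2 of the compounds, without passing the test. With Rhosin, SLC9D1 averaged -0.13 ± 0.09, SLC71A2 -0.07 ± 0.08, SLC49A4 0.11 ± 0.08 and SLC9A3-OT1 0.12 ± 0.12. With JK136 the values were -0.18 ± 0.10 for SLC49A3, -0.17 ± 0.12 for SLC75A1, -0.12 ± 0.08 for SLC71A2, -0.09 ± 0.09 for SLC35F6, -0.08 ± 0.12 for SLC66A3, 0.07 ± 0.08 for SLC49A4 and 0.17 ± 0.12 for SLC9A3-OT1. SLC49A3, the gene with the least difference between lines, read 5.13, 5.26 and 5.09 with JK136 and 5.38, 5.35 and 5.30 with DMSO. SLC35F6 read 7.52, 7.53 and 7.58 with JK136 and 7.67, 7.58 and 7.65 with DMSO. With JK139, SLC9D1 averaged -0.07 ± 0.09 and SLC33A2 0.07 ± 0.10. Of the 20 members, 11 had a mean below DMSO with Rhosin, 15 with JK136 and 14 with JK139. Their median difference was -0.005, -0.08 and -0.03 in that order, against -0.02, -0.02 and -0.01 over all genes. The shares of all genes below DMSO, or with 1 sign in 3 lines, were not counted, so these counts have no background.

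**Figure D4:**
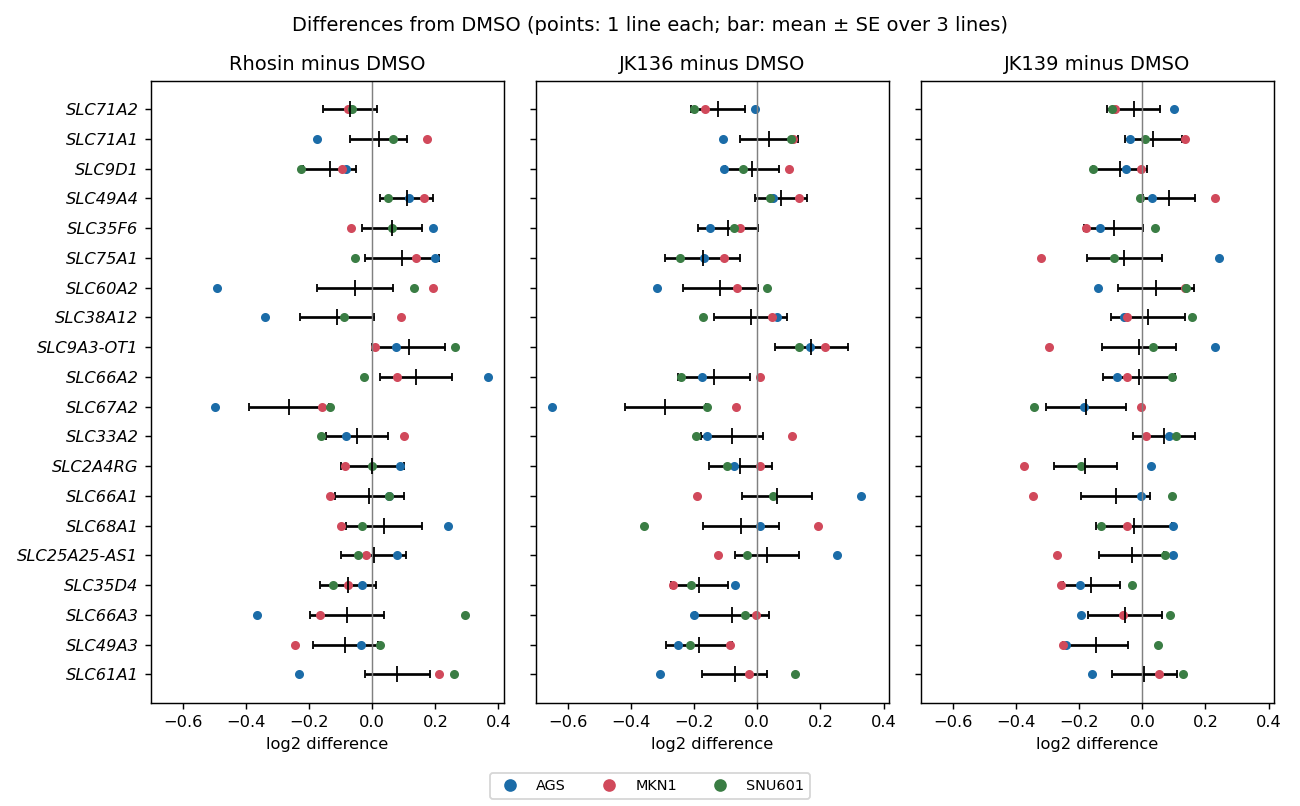
Log2 difference from DMSO (horizontal axis) of the 20 members with Rhosin, JK136 and JK139; points are the 3 lines, and the bar with whiskers is their mean ± SE from limma. Most means lie within 0.2 of 0, and the farthest points to the left are SLC67A2 in AGS with JK136 (-0.65) and Rhosin (-0.50).

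Direct comparisons of the compounds were made for 3 pairs, at doses and times that were not stated and may differ. JK136 minus Rhosin was -0.28 ± 0.11 for SLC66A2, with values of -0.54 (AGS), -0.07 (MKN1) and -0.21 (SNU601) behind it (adjusted p = 0.511, limma). For SLC75A1 it was -0.27 ± 0.12, with -0.37, -0.24 and -0.19 in the 3 lines (adjusted p = 0.545), for SLC61A1 -0.15 ± 0.10, for SLC35D4 -0.11 ± 0.09 and for SLC49A4 -0.03 ± 0.08. JK139 minus Rhosin kept 1 sign in SLC2A4RG (-0.18 ± 0.10), SLC35F6 (-0.15 ± 0.09) and SLC9D1 (0.06 ± 0.09). JK139 minus JK136 did so in SLC60A2 (0.16 ± 0.12), SLC71A2 (0.10 ± 0.08) and SLC61A1 (0.08 ± 0.10). The smallest adjusted p of a member was 0.511, 0.698 and 0.891 in the 3 pairs. A miss of the threshold does not show that the compounds acted alike.

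Within single lines, where a difference rests on 1 array against 1 and has no test, 14 of 180 differences from DMSO exceeded 0.3 in size. Of these, 9 were in AGS, 3 in MKN1 and 2 in SNU601. The share of all genes past 0.3 was not counted, so these counts have no background. The median size of all differences of the members was 0.14 for AGS and 0.10 for both MKN1 and SNU601, beside 0.150, 0.124 and 0.118 over all genes, so AGS led in both. In AGS the list held SLC67A2 (with Rhosin and JK136), SLC60A2 (-0.49 with Rhosin and -0.32 with JK136), SLC66A2 (0.37 with Rhosin), SLC66A3 (-0.36 with Rhosin), SLC38A12 (-0.34 with Rhosin), SLC66A1 (0.33 with JK136) and SLC61A1 (-0.31 with JK136). In MKN1 it held SLC2A4RG (-0.38), SLC66A1 (-0.35) and SLC75A1 (-0.32), all with JK139. SNU601 gave SLC68A1 with JK136 (-0.36) and SLC67A2 with JK139 (-0.34). The interaction of line with any compound, tested with limma's F test, called 0 members and 0% of all genes, and at an unadjusted p under 0.05 0 members and 244 genes. The members with the smallest p were SLC61A1, SLC60A2, SLC66A1, SLC66A3 and SLC67A2. For SLC60A2 the mean of the 3 compounds minus DMSO was -0.32 (AGS), 0.09 (MKN1) and 0.10 (SNU601), and for SLC61A1 -0.23, 0.08 and 0.17, with an adjusted p of 0.9999 for each.

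Genes around the carriers were taken from lists of partner proteins, glycolysis enzymes, amino acid stress genes and metallothioneins. Over all genes tested, 66.3% were called between MKN1 and AGS, 35.3% higher in the first-named line and 31.0% lower. Between SNU601 and AGS 52.7% were called (29.9% higher and 22.8% lower). Between SNU601 and MKN1 63.4% were called (32.3% higher and 31.1% lower). The counts of each list stand beside these shares. Of 14 genes listed as carrier partners, such as chaperone subunits, regulatory kinases and arrestins, 8 were tested. Among these, MPC1 and MPC2 are themselves subunits of a carrier and not partners of one. Those called were higher in the first-named line: 4 for MKN1 against AGS, 7 for SNU601 against AGS and 4 for SNU601 against MKN1, with 0 lower in each. The list's median difference was 0.25, 0.58 and 0.22 in these comparisons, beside 0.02, 0.05 and 0.02 over all genes. MPC1 and MPC2 are included in these calls and medians, and medians without them were not computed. Between MKN1 and AGS both were called (0.56 and 0.39), as were ARRDC4 (0.48) and TXNIP (0.52). The rest of the list, OXSR1 (0.11), BSG (-0.06), STK39 (-0.09) and WNK1 (-0.13), was not called there. ARRDC4, an arrestin that promotes endocytosis of glucose carriers, was higher in SNU601 than AGS by 1.28, its relative TXNIP by 0.67 and MPC1 and MPC2, the subunits of the mitochondrial pyruvate carrier, by 1.03 and 0.50 (limma adjusted p from 1.64e-06 to 0.00408). Of 9 glycolysis enzymes tested, 5 were higher and 1 lower in MKN1 than AGS, 5 higher and 1 lower in SNU601 than AGS, and 2 higher and 5 lower in SNU601 than MKN1 (medians 0.36, 0.43 and -0.41). Of 7 amino acid stress genes the counts were 2 and 5, 1 and 5, and 3 and 2 in the same order (medians -1.39, -1.08 and 0.40). Of 5 metallothioneins and zinc sensors they were 5 and 0, 2 and 2, and 0 and 5 (medians 1.23, -0.21 and -1.37). SLC25A15, the 1 named gene of the carrier lists, differed by 0.28 between MKN1 and AGS, -0.22 between SNU601 and AGS and -0.50 between SNU601 and MKN1, all called. The treatment comparisons called 0 genes of these lists in limma.

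Markers of cell types were read where they had a symbol, and those without one were not analysed here. Of 7 epithelial markers listed, 6 had a symbol. All 6 stood at 5 or more in each line, but not at like levels. In MKN1 EPCAM averaged 6.49, against 10.0 (AGS) and 10.2 (SNU601), CLDN7 6.06, against 9.63 and 10.0, and CLDN4 5.07, against 5.40 and 5.47. The keratins went the other way and were highest in MKN1. KRT8 averaged 6.55 there, against 6.16 (AGS) and 6.44 (SNU601), KRT18 10.7, against 9.63 and 10.5, and KRT19 9.72, against 8.27 and 9.33. The summed log2 level of the 6 was 44.6 in MKN1, against 49.1 (AGS) and 52.0 (SNU601). Of 8 gastric markers listed, 6 had a symbol. Of these 6, 4 stood at 5 or more in SNU601, 1 in AGS and 0 in MKN1. The pit cell genes GKN1 and GKN2 were low in every line. The summed level of these 6 was 36.2 in SNU601, against 21.8 (AGS) and 19.9 (MKN1). Of 5 mesenchymal markers listed, 3 had a symbol (VIM, FN1 and ZEB1). All 3 reached 5 in MKN1 and 0 did in AGS or SNU601. Their summed log2 level was 23.9 in MKN1 against 11.1 and 11.0. Of 6 fibroblast and 5 blood cell markers listed, 2 of each had a symbol. Fibroblast DCN and blood CD14 were low in every line, though LUM stood at 8.76 in MKN1 and LYZ, which gastric glands also make, at 10.8 in AGS and 11.8 in SNU601. The epithelial, gastric and mesenchymal markers thus differed between the lines too, and their part in the line differences of the members was not tested.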

How the data were processed

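Per the labels and the submitters' processing notes, the authors processed the arrays by RMA (robust multi-array average) in Affymetrix Expression Console and deposited log2 signals, versions not given in the sources used here. RMA corrects background, quantile-normalises the arrays and summarises probes into transcript clusters, which compresses low signals. The deposited table held 53617 clusters, with values from 0.286 to 13.0, array medians between 4.14 and 4.20, and correlations between arrays of 0.978 to 0.988 within a line and 0.927 to 0.960 between lines. A symbol was available for 16098 clusters (30.0%), and clusters without one entered no test.

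For each of the 14884 symbols the cluster of highest mean was kept. Genes below the 40th percentile of means were left out, which left 8930. The model, fitted in limma 3.58.1 (R 4.3.3), had line and treatment as terms (6 residual degrees of freedom) and Benjamini-Hochberg adjustment over all genes tested. The interaction test took the spread between compounds within a line as its error. The code was tested on simulated data. The members and gene lists were chosen with earlier results of these data known.

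Named were the 10 brightest members, the 5 on either side of the minimum and every member past a line threshold. Also named were up to 5 each way of the treatment differences of 1 sign in 3 lines, and the 5 of smallest interaction p. For JK136 against DMSO, SLC35F6 and SLC66A3 were given beyond the 5 lowest. Alternatives covered quantile normalisation or centring of the arrays, filters, priors, array weights, other terms, every cluster tested, and leaving out each array or line.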

Additional observations from a re-analysis of the deposited data

Results flagged for a closer look

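For each member and line the 4 treatments were looked at for an array far from the others, in 60 groups of 4 arrays. One stood out: SLC66A1, the lysosomal exporter of cationic amino acids, in AGS with JK136, at 5.84 on the log2 scale against 5.57 for the nearest of the other 3. Chance flags about 1 in 20 such groups.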

How the results depend on the processing

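Each line comparison was run under 21 alternatives, each treatment comparison under 23 and the interaction under 16. The number of members called ranged from 12 to 13 for MKN1 against AGS, 10 to 14 for SNU601 against AGS and 9 to 10 for SNU601 against MKN1, and was 0 in those run for the 6 treatment comparisons and the interaction. Other minima or ways to pick a cluster gave 18 to 24 members. Of 36 line calls, 31 were kept in each of the 21 alternatives, and no difference of a named member past the threshold changed sign. SLC25A25-AS1 and SLC66A1 between SNU601 and AGS were also lost with quantile normalisation, without the filter and with a trended prior, the first with median centring too. Between SNU601 and AGS, SLC68A1 was called with array weights, without the treatment term, or without the JK136 array of MKN1 or SNU601. Between SNU601 and MKN1, SLC66A3 was called without the SNU601 array with Rhosin. The interaction could not be fitted without a DMSO array. No paired analysis by replicate number was possible because every combination had 1 array, and line was a term of the model instead. Background signal was not measured here. SLC61A1 averaged 4.68 in AGS, near the filter level of 4.61.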
